A study of Mus musculus with 18 samples.

Results

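The myogenic regulatory factors Myod1, Myf5, Myf6 and Myog and the MEF2 factors Mef2a, Mef2c and Mef2d were followed through muscle differentiation in 3 lines of C2C12 cells. These 7 genes belong to the families named, from which Mef2b was left out, and were chosen with earlier results of these data known. They were taken out of 55450 gene IDs in the count table, of which 17912 had enough counts to be tested. All 7 passed that filter on low counts. C2C12 is a mouse myoblast line that divides in serum-rich medium and fuses into multinucleated myotubes when serum is lowered. PolyA RNA was sequenced from 18 libraries, 3 (A, B and C) for each line as dividing myoblasts and 3 for each line as myotubes, taken on day 3 after the change of medium.

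The study asked what the dosage of the Dlk1-Dio3 cluster of noncoding RNAs does to muscle cell state and differentiation. The control line was a sorted population of cells that had received the pX458 vector, which carries Cas9 and EGFP, without a guide against Meg3, a noncoding gene of that cluster. The other lines were each grown from a single cell after editing with pairs of guides that delete parts of the Meg3 proximal promoter. The labels call the line of clone 2-4 a Dlk1-Dio3 overexpressor and the line of clone 2-7 a Dlk1-Dio3 knockout. Each genotype was 1 line, so genotype and clone cannot be told apart. Nothing in the labels says that replicates came from separate cultures, so the p-values measure the spread between these libraries, which may be technical.

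Library totals ran from 41544358 to 79140702 counts. Levels are given as CPM, counts scaled to a common library size with TMM factors, which lay between 0.895 and 1.08. Meg3 had 5222 to 7763 counts in each overexpressor library and 0 counts in each control and knockout library, so its level checks the overexpressor label and cannot separate the line labelled knockout from control. The summed level of 6 myotube markers was 163 to 261 CPM in control myoblasts and 12463 to 12964 CPM in control myotubes, and that of 4 adipocyte markers was at most 0.146 CPM in every library. No replicate pair agreed within sampling noise (lowest chi-square per degree of freedom 4.46). The highest values over all genes belonged to overexpressor myotube library C, at 108 against A and 103 against B. Libraries A and B of that group gave 21.0. Libraries A and C of the knockout myotubes gave 50.4.

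The myogenic regulatory factors are basic helix-loop-helix proteins that pair with E proteins and bind E-boxes in the control regions of muscle genes. Myod1 and Myf5 set and hold the myoblast identity, Myog drives the exit into terminal differentiation, and Myf6 is best known from maturing muscle fibres. MEF2 proteins bind A/T-rich sites, act together with the myogenic factors on the same muscle genes, and also act on the Myog promoter.

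The Myog promoter is shown because it carries known sites of both families, and the first of 3 Mef2c windows because Mef2c had the widest range of levels among the 7 factors. Windows of 250 bases before the transcription start came from RefSeq (build GRCm38.p6) and were found for 5 of the 7 members. Myod1 and Myf6 had none. Capitals mark E-boxes (CANNTG), a MEF3 site (TCAGGTTTC) and the string CTATATTTAT, the MEF2 site of Myog, each searched on both strands. The last string was chosen after the window had been read.
Myog, chr1:134289754-134290003, plus strand: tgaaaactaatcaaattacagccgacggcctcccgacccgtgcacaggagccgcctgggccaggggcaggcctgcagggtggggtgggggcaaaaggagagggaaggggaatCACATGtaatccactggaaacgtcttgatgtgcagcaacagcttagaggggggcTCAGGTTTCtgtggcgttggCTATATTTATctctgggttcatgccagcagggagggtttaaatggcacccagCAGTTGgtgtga
Mef2c, chr13:83503784-83504033, plus strand: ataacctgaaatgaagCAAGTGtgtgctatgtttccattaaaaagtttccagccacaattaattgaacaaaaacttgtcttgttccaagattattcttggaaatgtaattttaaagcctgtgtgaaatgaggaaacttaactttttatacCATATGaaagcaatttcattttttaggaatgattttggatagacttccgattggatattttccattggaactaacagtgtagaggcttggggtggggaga

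In the Myog window the E-boxes began 138 and 12 bases before the start, the MEF3 site 84 bases before it and the MEF2 string 64 bases before it. E-boxes were found in 66.2% of 32851 promoter windows of the same length, so their presence is common. The MEF3 site was found in 0.387% of windows and the MEF2 string in 0.0700%, and 2 windows held both of these with an E-box. The string was taken from the Myog window, so its presence there was fixed in advance. A more general MEF2 pattern was found in 2.92% of windows, but not in that of Myog. That Mef2c window had E-boxes 234 and 100 bases before the start and a GC content of 33.6%, against a median of 52.4% over all windows. The window of Mef2d was 73.2% GC and that of Mef2a 61.6% GC. Neither these nor the window of Myf5 held an E-box, a MEF3 site or the MEF2 string.

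Myod1 (chr7:46376474-46379099, plus strand, build mm10 as for all gene positions here) was at a similar level in control cells before and after differentiation, and higher in both edited lines. Control myoblasts had 193, 216 and 217 CPM in libraries A, B and C. Overexpressor myoblasts had 364, 295 and 349.7 CPM, and knockout myoblasts 324, 317 and 313 CPM. Each library of either edited line lay above every control library. Myod1 was 0.69 above control on the log2 scale in overexpressor myoblasts (SE 0.10, adjusted p = 1.29e-05) and 0.61 above it in knockout myoblasts (SE 0.10, adjusted p = 3.44e-05). These and all later tests of single genes are edgeR's quasi-likelihood test with Benjamini-Hochberg adjustment over the 17912 genes. Between the edited lines the difference was 0.08 (95% interval -0.12 to 0.28, adjusted p = 0.508). In bulk RNA, fewer cells of a type and less RNA of a gene in each cell cannot be told apart, here or in any result that follows.

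As myotubes, control libraries had 233, 219.9 and 196 CPM of Myod1, overexpressor libraries 299, 264 and 234 CPM, and knockout libraries 354, 378 and 423 CPM. The knockout libraries stood above all others, while the lowest overexpressor library, C, lay just above the highest control library, A. The knockout was above control by 0.83 (SE 0.10, adjusted p = 5.63e-07) and the overexpressor by 0.30 (SE 0.10, adjusted p = 0.0130). The overexpressor call was lost without control myotube library C (0.23, adjusted p = 0.0732) or overexpressor myotube library A (0.21, adjusted p = 0.0845), within a range of 0.000284 to 0.0845 over 14 alternatives. Overexpressor myotubes were below knockout myotubes by -0.53 (adjusted p = 0.000141).

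Differentiation left Myod1 within a narrow range. Its change was 0.05 for control (95% interval -0.15 to 0.25, adjusted p = 0.662), -0.34 for the overexpressor (adjusted p = 0.00502) and 0.28 for the knockout (adjusted p = 0.0180). The control value changed sign under 4 of 14 alternatives. The overexpressor call was lost without overexpressor myotube library C (-0.21, adjusted p = 0.0751, range 0.000877 to 0.0751) and with the DESeq2 Wald test (-0.25, adjusted p = 0.0543). The knockout call was lost without knockout myoblast library C (0.26, adjusted p = 0.0523) or knockout myotube library C (0.20, adjusted p = 0.0965), and with library totals in place of TMM (0.10, adjusted p = 0.311, the upper end of a range that began at 0.00155).

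Myf5 (chr10:107482908-107486134, minus strand), the other factor of the myoblast state, was raised in overexpressor myoblasts and fell in all 3 lines on differentiation. Control myoblasts had 26.5, 23.7 and 26.4 CPM, overexpressor myoblasts 73.4, 82.0 and 63.6 CPM, and knockout myoblasts 25.2, 23.3 and 23.2 CPM. Overexpressor libraries did not overlap with the rest, and the knockout libraries lay within or just under the control range. The overexpressor was 1.52 above control (SE 0.18, adjusted p = 3.36e-06) and 1.61 above the knockout (SE 0.18, adjusted p = 1.05e-06). For the knockout against control the value was -0.10 (95% interval -0.47 to 0.28, adjusted p = 0.685).

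After differentiation Myf5 had 4.85, 6.94 and 6.82 CPM in control libraries, and the overexpressor had 6.98, 7.58 and 11.2 CPM and the knockout 10.4, 7.75 and 6.65 CPM. The gap between the highest control and the lowest overexpressor library was small, and the knockout libraries overlapped with both other lines. The overexpressor passed the threshold against control (0.47, adjusted p = 0.0413) and the knockout did not (0.42, adjusted p = 0.0595). The overexpressor call was lost under 5 of 14 alternatives (adjusted p from 0.00234 to 0.184). These were the fits without control myotube library A (0.32, adjusted p = 0.184) or overexpressor myotube library C (0.34, adjusted p = 0.0871), with no filter (0.0941), with only the groups compared (0.0606) and with the replicate block (0.0630). The knockout passed under 7 of 14 alternatives (0.00340 to 0.311). Myf5 fell by 2.04, 3.09 and 1.53 on differentiation of control, overexpressor and knockout (adjusted p = 7.26e-08, 3.84e-10 and 2.31e-06).

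Myog (chr1:134289989-134292548, plus strand) was already high in knockout myoblasts. Control myoblasts had 99.4, 126 and 90.3 CPM, overexpressor myoblasts 321, 226 and 344 CPM, and knockout myoblasts 1082, 1249 and 1139 CPM. The 3 lines formed separate steps with no overlap. Myog was 3.46 above control in the knockout (SE 0.15, adjusted p = 6.34e-12), which is 10.99-fold, and 1.496 above control in the overexpressor (SE 0.14, adjusted p = 1.62e-07), which is 2.82-fold. Overexpressor myoblasts were below knockout myoblasts by -1.96 (SE 0.14, adjusted p = 3.38e-09). The summed dividing-cell markers were at 1012 to 1048 CPM in control, 915 to 1190 CPM in overexpressor and 844 to 910 CPM in knockout myoblasts, and the summed myotube markers at 163 to 261, 258 to 426 and 8372 to 10796 CPM. The part of either marker set in the Myog result was not tested.

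Once differentiated, the lines were closer in Myog. Control myotubes had 1764, 1768 and 1663 CPM, overexpressor myotubes 2007, 1899 and 1659.9 CPM, and knockout myotubes 2359.7, 2522 and 2714 CPM. Overexpressor and control libraries overlapped, and the knockout libraries were above both. The overexpressor value against control was 0.10 (95% interval -0.19 to 0.39, adjusted p = 0.559), and the knockout was higher by 0.55 (SE 0.14, adjusted p = 0.00196). Overexpressor myotubes were below knockout myotubes by -0.45 (adjusted p = 0.00967), a call lost without overexpressor myotube library C (-0.35, adjusted p = 0.0681) and, just, with no filter on low counts (adjusted p = 0.0503), in a range from 0.00387 to 0.0681. Knockout myoblasts lay between the myoblasts and the myotubes of the control line, at 1157 ± 84.9 CPM (SD, n = 3) against 105 ± 18.6 and 1732 ± 59.6 CPM.

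Myf6 (chr10:107492853-107494737, minus strand), which lies beside Myf5 in the same orientation, was the least abundant of the 4 myogenic factors per length in every group but knockout myotubes, where it was above Myf5. In myotubes it differed from control in opposite directions in the edited lines. Control myoblasts had 0.187, 0.211 and 0.156 CPM, from 7 to 11 counts in each library. Overexpressor myoblasts had 0.719, 0.733 and 0.555 CPM and knockout myoblasts 2.45, 2.62 and 2.31 CPM. The steps did not overlap, and the overexpressor was 1.84 (SE 0.26, adjusted p = 1.66e-05) and the knockout 3.71 above control (SE 0.23, adjusted p = 1.80e-10). Control myotubes had 2.56, 2.20 and 2.85 CPM, overexpressor myotubes 0.609, 0.375 and 0.695 CPM, and knockout myotubes 11.1, 11.1 and 10.6 CPM.

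Myf6 was below control in overexpressor myotubes (-2.19, SE 0.18, adjusted p = 8.36e-09) and above control in knockout myotubes (2.10, SE 0.16, adjusted p = 1.82e-09). Between the edited lines the gap was -4.29 (SE 0.18, adjusted p = 3.44e-12), 19.6-fold, and it ranked 48 by p among the 17912 genes. Differentiation raised Myf6 by 3.76 in control and 2.15 in the knockout (adjusted p = 6.85e-11 and 2.12e-09). In the overexpressor the value was -0.27 (95% interval -0.71 to 0.17, adjusted p = 0.272), and its myotube libraries overlapped with its myoblast libraries.

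**Figure D1:**
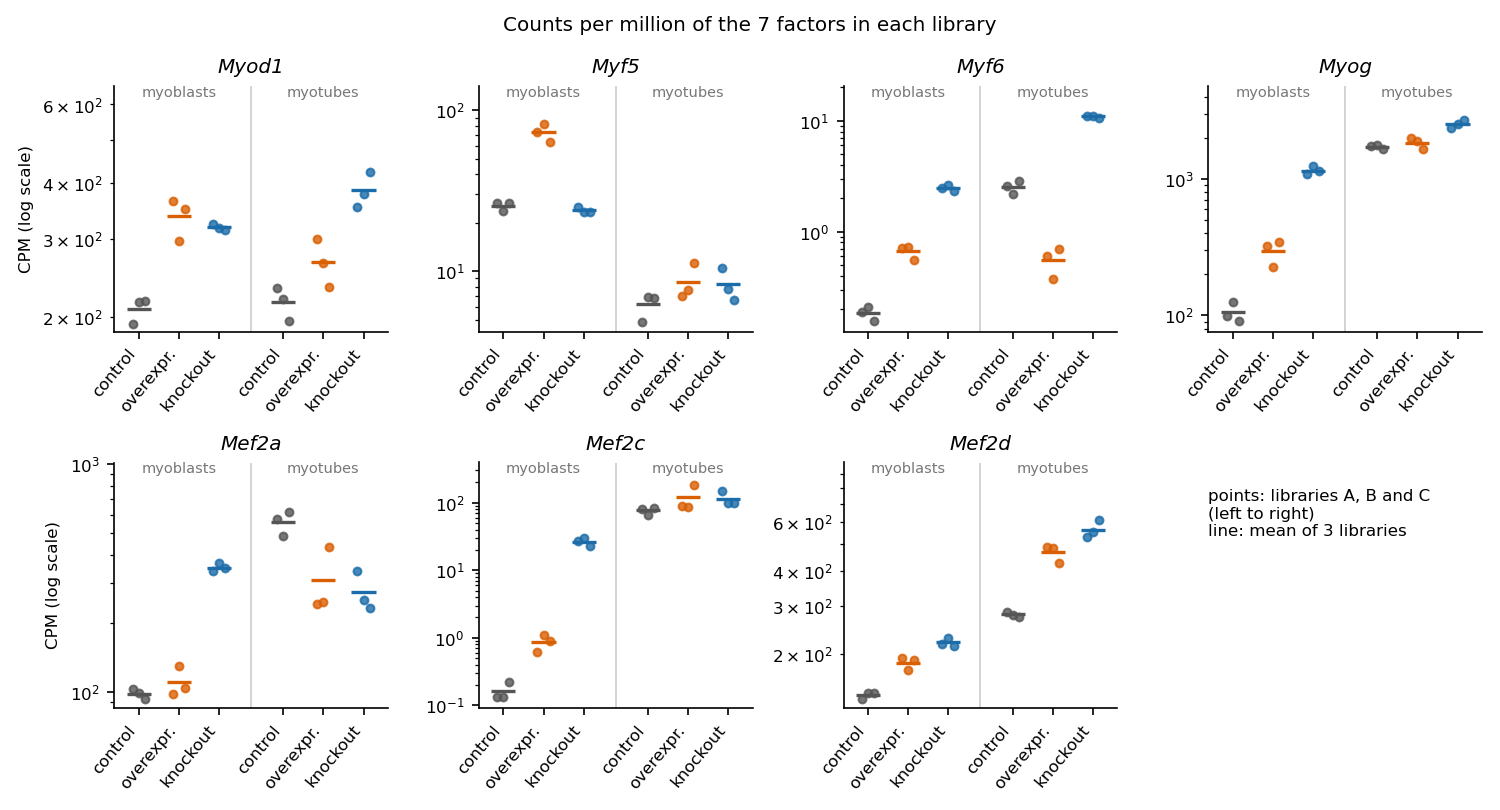
CPM of each of the 7 factors on a log scale, 1 panel per gene, with 1 point per library (A, B and C from left to right) and a line at the mean of 3 libraries. Myog and Mef2c form steps from control to overexpressor to knockout in myoblasts, and overexpressor myotube library C stands apart for Mef2a (434 CPM) and Mef2c (183 CPM).

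Mef2a (chr7:67231163-67372858, minus strand) was raised early in the knockout and was low in the myotubes of both edited lines. Control myoblasts had 103, 99.1 and 93.5 CPM, overexpressor myoblasts 98.4, 129.8 and 104 CPM, and knockout myoblasts 339, 367 and 349 CPM. Knockout libraries stood far above the others, which overlapped. The knockout was 1.84 above control (SE 0.20, adjusted p = 2.08e-06), and the overexpressor value was 0.17 (95% interval -0.26 to 0.60, adjusted p = 0.543). In the annotation 302 exon bases of Mef2a overlap Lysmd4 on the other strand, and whether counting used strand is not given in the sources used here, so reads there cannot be assigned with certainty.

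Control myotubes had 576, 485 and 616 CPM of Mef2a, overexpressor myotubes 243, 249 and 434 CPM, and knockout myotubes 339.9, 254 and 233 CPM. Every control library was above every library of the edited lines. Mef2a was lower than in control by -0.86 in the overexpressor (SE 0.20, adjusted p = 0.00170) and by -1.02 in the knockout (SE 0.20, adjusted p = 0.000355). Without overexpressor myotube library C the overexpressor value was larger in size, -1.08. Mef2a rose on differentiation by 2.51 in control (adjusted p = 5.27e-08) and 1.48 in the overexpressor (adjusted p = 1.21e-05). In the knockout it was -0.35 (95% interval -0.77 to 0.07, adjusted p = 0.132), and it passed the threshold as a fall without knockout myotube library A (-0.53, adjusted p = 0.0406) and with library totals (adjusted p = 0.0358), in a range up to 0.369.

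Mef2c (chr13:83504034-83667080, plus strand), the MEF2 gene most closely tied to differentiating muscle, had the largest changes of the 7. Control myoblasts had 0.131, 0.135 and 0.223 CPM, from 7 to 10 counts in each library, overexpressor myoblasts 0.619, 1.10 and 0.901 CPM, and knockout myoblasts 26.9, 29.6 and 23.0 CPM. Again the 3 lines did not overlap. Mef2c was 7.35 above control in the knockout (SE 0.44, 95% interval 6.42 to 8.29, adjusted p = 2.18e-09), which is 164-fold. In the overexpressor it was 2.42 above control (SE 0.62, 95% interval 1.09 to 3.76, adjusted p = 0.00576). The overexpressor was below the knockout by -4.93 (SE 0.35, adjusted p = 1.25e-08).

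Control myotubes had 81.5, 66.7 and 84.8 CPM of Mef2c, overexpressor myotubes 89.9, 87.7 and 183 CPM, and knockout myotubes 148, 99.5 and 98.5 CPM. Library C of the overexpressor and library A of the knockout were high, and the other libraries of these lines lay a little above control. The overexpressor passed against control (0.63, SE 0.25, adjusted p = 0.0429) and the knockout did not (0.57, SE 0.25, adjusted p = 0.0548). The overexpressor call was lost under 7 of 14 alternatives: without its library C (0.29, adjusted p = 0.129) and without control myotube library A (0.66, adjusted p = 0.0753), B (0.53, adjusted p = 0.141) or C (0.695, adjusted p = 0.0596), and with no filter (0.0953), only the groups compared (0.0919) or the replicate block (0.0597), in a range from 0.00309 to 0.141. The knockout passed under 6 of 14 alternatives (0.00372 to 0.252). Differentiation raised Mef2c by 8.90 in control (SE 0.43, adjusted p = 1.06e-10), by 7.11 in the overexpressor (SE 0.36, adjusted p = 1.50e-10) and by 2.12 in the knockout (SE 0.26, adjusted p = 5.20e-06).

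Mef2d (chr3:88142372-88172086, plus strand), which is made in myoblasts and myotubes alike, had the smallest SE of the 7 in each comparison. Its myoblast libraries had 138, 145 and 145 CPM (control), 193, 175 and 191 CPM (overexpressor) and 218, 230.0 and 214 CPM (knockout). Its control myotubes had 285, 279 and 272 CPM, the overexpressor 488, 483 and 429.6 CPM and the knockout 530.2, 552 and 611 CPM. None of the 6 groups overlapped with its neighbour. Against control the overexpressor was higher by 0.39 in myoblasts and 0.75 in myotubes (adjusted p = 9.34e-05 and 1.75e-08), and the knockout by 0.63 and 1.02 (adjusted p = 2.00e-07 and 2.22e-10), each with an SE of 0.07. Mef2d rose on differentiation by 0.97, 1.32 and 1.35 in control, overexpressor and knockout (adjusted p = 3.64e-10, 4.71e-12 and 1.38e-11). Of its exon bases, 531 overlap 1700113A16Rik on the other strand, with the same uncertainty as for Mef2a.

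Mef2b, the MEF2 paralog that is no member, stayed low, at 3 to 8 counts in each control or overexpressor myoblast library and at 0.821 ± 0.227 CPM (SD, n = 3) in control myotubes. It was higher than control in knockout myoblasts (2.12, adjusted p = 0.00408) and lower than control in overexpressor myotubes (-2.38, adjusted p = 0.000106).

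In overexpressor myoblasts 6 of the 7 were called higher than control and 0 lower, all but Mef2a. Over all genes tested 40.4% were called in that comparison, 20.7% higher and 19.7% lower. In knockout myoblasts 6 were higher and 0 lower, all but Myf5, beside 53.0% of genes called, 26.4% higher and 26.6% lower. The median log2 difference of the members was 1.496 and 1.84 in these comparisons, and that of all genes was 0.02 in both. Overexpressor against knockout myoblasts gave 1 member higher (Myf5) and 5 lower, beside 52.6% of genes called, 25.7% higher and 26.9% lower. The comparisons of a stage share control libraries and are set side by side here without a test of their likeness.

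In overexpressor myotubes 4 members were higher than control (Myod1, Myf5, Mef2c, Mef2d) and 2 lower (Myf6, Mef2a), beside 57.1% of genes called, 26.2% higher and 30.9% lower. Higher calls were 45.8% of all calls there, 57.8% with library totals and 55.1% with DESeq2 size factors. In knockout myotubes 4 were higher (Myod1, Myf6, Myog, Mef2d) and 1 lower (Mef2a), beside 68.0% of genes called, 31.0% higher and 37.0% lower, where higher calls were 45.6% of the calls and 53.3% with DESeq2 size factors. Overexpressor against knockout myotubes gave 0 higher and 4 lower (Myod1, Myf6, Myog, Mef2d), beside 59.7% called, 30.6% higher and 29.1% lower. Higher calls were 51.2% of those calls, and 60.03% with library totals, and the Mef2d call was lost with only the groups compared (-0.26, adjusted p = 0.0539, the upper end of a range from 0.000681). Called members were thus 6, 5 and 4 of 7 in these myotube comparisons, and the last 2 counts are near the share of all genes called. The medians of the members were 0.30 and 0.57 against control, with medians of all genes at -0.04 and -0.07.

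Marker sums also differed between the myotubes. Summed myotube markers were at 12463 to 12964 CPM in control, 20643 to 21709 CPM in overexpressor and 27740.5 to 32839 CPM in knockout myotubes, and summed myoblast markers at 3602 to 3771, 7087 to 8289 and 8893 to 11741 CPM. In the myoblasts of these lines the myoblast marker sum was lower, at 1555 to 1693, 3234 to 3923 and 3824 to 4388 CPM. It is thus no measure of undifferentiated cells. The summed dividing-cell markers were at 79.0 to 105 CPM in control, 147 to 194 CPM in overexpressor and 150 to 195 CPM in knockout myotubes, and all 5 of 5 were above the level of 3 counts in each group. Summed Pdgfra and Dpt, markers of fibro-adipogenic cells, were at 110 to 113 CPM in control, 9.80 to 11.7 CPM in overexpressor and 17.3 to 20.4 CPM in knockout myotubes. Over all 18 libraries Dpt ran from 3 to 4854 counts and Pdgfra from 638 to 2123, so this sum can follow Dpt alone. The part of these marker sums in the myotube results was not tested.

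**Figure D2:**
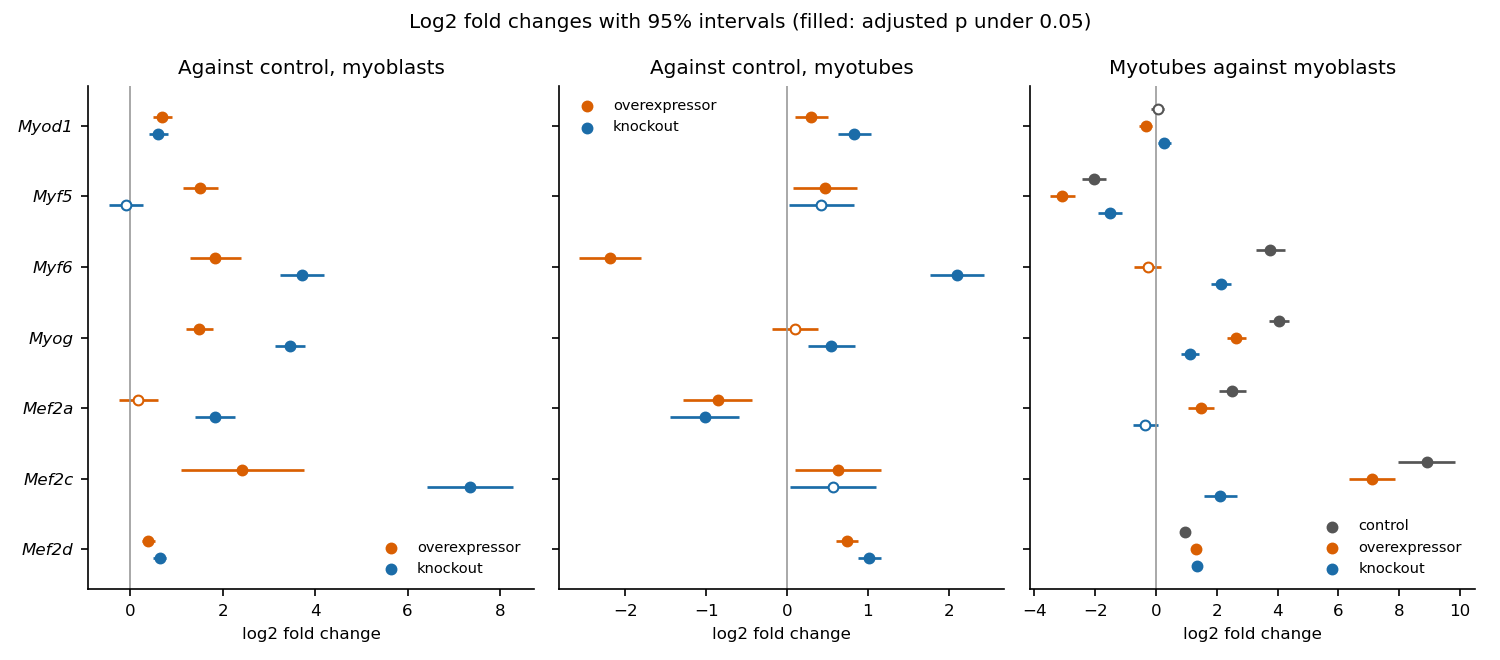
Log2 fold changes of the 7 factors with 95% intervals, for each edited line against control in myoblasts and in myotubes, and for myotubes against myoblasts in each line; filled points passed an adjusted p of 0.05. The knockout points lie right of the overexpressor points for Myf6, Myog, Mef2a and Mef2c in myoblasts, and for Myf6 the lines fall on opposite sides of 0 in myotubes.

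Differentiation called 5 members higher (Myf6, Myog and the 3 MEF2 factors) and 1 lower (Myf5) in control, beside 62.8% of genes called, 33.9% higher and 28.8% lower. Higher calls made up 54.0% of the calls in control, and 37.9% with library totals. In the overexpressor 4 were higher (Myog and the 3 MEF2 factors) and 2 lower (Myod1, Myf5), beside 62.8% called, 29.8% higher and 33.0% lower. In the knockout 5 were higher (Myod1, Myf6, Myog, Mef2c, Mef2d) and 1 lower (Myf5), beside 65.4% called, 29.8% higher and 35.6% lower, where higher calls were 45.5% of the calls, 34.0% with library totals and 53.7% with DESeq2 size factors. The members' median changes were 2.51, 1.32 and 1.13 for control, overexpressor and knockout, and those of all genes 0.07, -0.02 and -0.08.

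Whether the lines differed in this response was tested directly, as the difference between 2 differentiation changes in the same model. Measured against control, the knockout responded less for Mef2c (-6.78), Myog (-2.91), Mef2a (-2.86) and Myf6 (-1.61) and more for Mef2d (0.39), so 1 member was higher and 4 lower beside 50.1% of genes called, 20.2% higher and 29.9% lower. Higher calls were 40.4% of all calls, and 52.0% with DESeq2 size factors. Knockout myoblasts started from higher levels of all 4 genes with a smaller response, as given above. Myod1 (0.23, adjusted p = 0.181) and Myf5 (0.52, adjusted p = 0.111) did not pass, though each passed under 4 of 20 alternatives (adjusted p from 0.0198 to 0.391 and from 0.0150 to 0.303).

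The response of the overexpressor minus that of control was negative for Myf6 (-4.03), Myog (-1.40), Myf5 (-1.04), Mef2a (-1.03) and Myod1 (-0.39). It was positive for Mef2d (0.35). Myog and Mef2a rose less than in control, and Myf6 rose in control without passing in the overexpressor. Myf5 instead fell further in the overexpressor (-3.09 against -2.04), and Myod1 changed by -0.34 against 0.05. Thus 1 was higher and 5 lower, beside 39.0% of genes called, 16.6% higher and 22.3% lower. Higher calls were 42.7% of the calls, 61.0% with library totals and 53.9% with DESeq2 size factors. The Myod1 call was lost under 11 of 20 alternatives (adjusted p up to 0.276). Mef2c did not pass (-1.80, SE 0.69, adjusted p = 0.0522), and passed under 6 of 20 alternatives (0.000716 to 0.144), among them the fit without overexpressor myotube library C (-2.12, adjusted p = 0.00147). The response of the overexpressor minus that of the knockout was positive for 3 members (Myog, Mef2a, Mef2c) and negative for 3 (Myod1, Myf5, Myf6). Of these, Myf5 fell in both lines and further in the overexpressor. Over all genes 46.7% were called, 24.3% higher and 22.4% lower, where higher calls were 52.0% of the calls and 61.9% with library totals.

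Levels of different genes were compared per length of exon, as CPM per kilobase over the union of annotated exons. In control myoblasts Myod1 led at 112 CPM per kilobase, followed by Myog (70.4), Mef2d (23.8), Myf5 (12.3), Mef2a (6.70), Myf6 (0.146) and Mef2c (0.0104), with no overlap between neighbours. In overexpressor myoblasts Myog (199) and Myod1 (181) overlapped, and so did Myf5 (35.1) and Mef2d (31.2). In knockout myoblasts Myog stood first at 774 CPM per kilobase, ahead of Myod1 at 171. Myog, Myod1, Mef2d and Mef2a held the first 4 places in this order in the myotubes of all 3 lines, with Myog at 1158, 1241 and 1694 CPM per kilobase in control, overexpressor and knockout. Measured over the longest transcript instead, Mef2a came before Mef2d in knockout myoblasts and control myotubes. The union of exons was 14681 bases for Mef2a and 15715 for Mef2c, and the longest transcript 5538 and 6277 bases.

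As a share of the summed level per kilobase of the 4 myogenic factors, Myog made up 36.0% ± 4.00 (SD, n = 3 here and below) of the control, 47.5% ± 4.06 of the overexpressor and 80.7% ± 1.31 of the knockout total before differentiation. After it the shares were 90.5% ± 0.416, 89.4% ± 0.305 and 88.5% ± 0.157. Myf6 was a small share of every total, and in myotubes it was 0.157% of the control, 0.0324% of the overexpressor and 0.454% of the knockout total. Myod1 took 57.6%, 43.7% and 17.9% of the total in the myoblasts of the 3 lines, and Myf5 6.34%, 8.65% and 1.20%. The sums themselves were 195 ± 15.1, 415 ± 56.3 and 958 ± 55.1 CPM per kilobase for the myoblasts of the 3 lines, and 1279 ± 48.9, 1388 ± 135 and 1913 ± 136 in the myotubes.

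**Figure D3:**
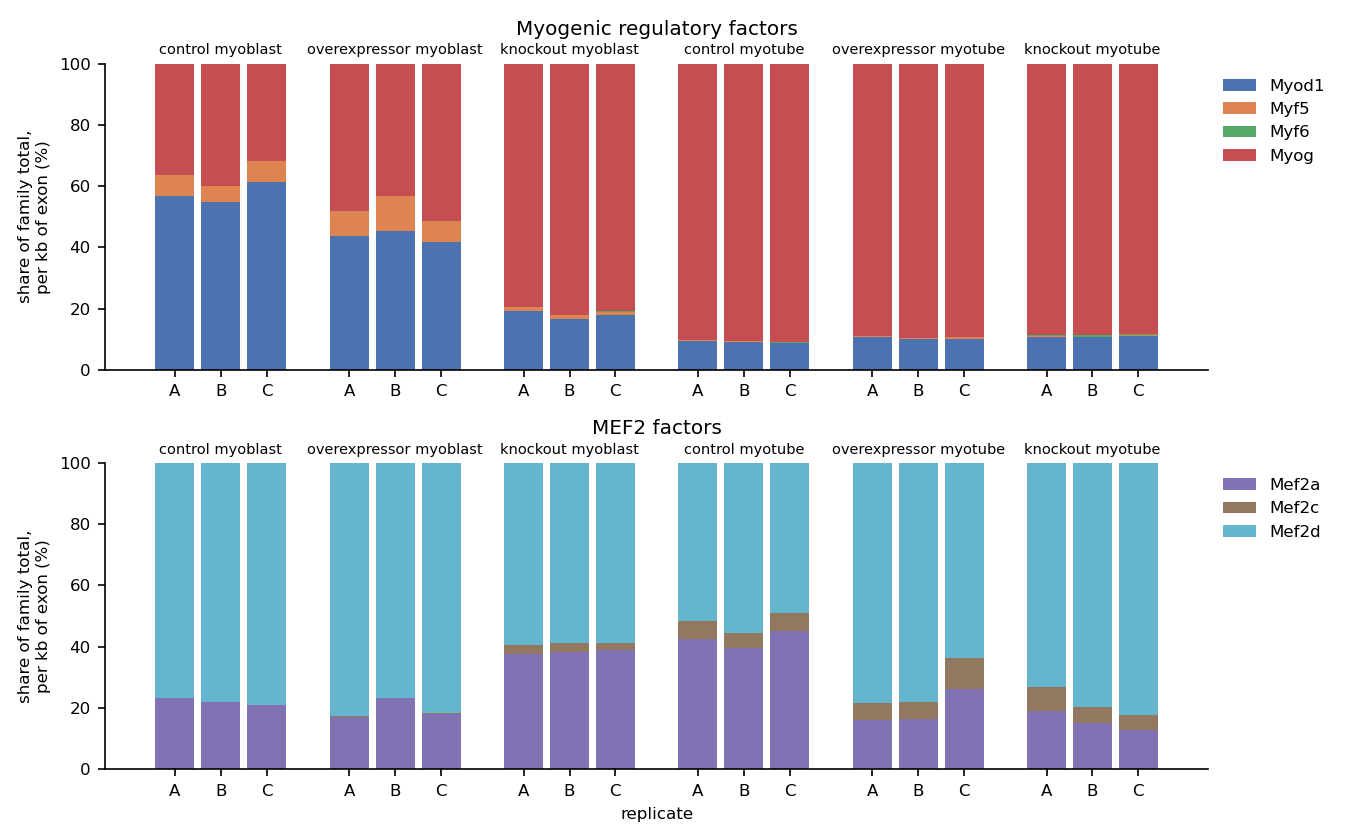
Share in percent of each gene in the summed CPM per kilobase of exon of its family, for each library (A, B and C) of the 6 groups; upper panel myogenic regulatory factors, lower panel MEF2 factors. Myog grows from 36.0% of its family in control myoblasts to 80.7% in knockout myoblasts, and Mef2a is larger in control myotubes (42.4%) than in the myotubes of the edited lines.

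In the MEF2 family, Mef2a made up 42.4% ± 2.88 of the family's summed level per kilobase in control myotubes, 19.5% ± 5.78 in overexpressor myotubes and 15.6% ± 3.21 in knockout myotubes, and Mef2d 52.1%, 73.4% and 78.3%. Mef2c was at 5.50%, 7.07% and 6.09%. In myoblasts the shares of Mef2a were 21.99%, 19.5% and 38.3%. The summed level of the family was 89.6 ± 4.98, 107 ± 5.43 and 120.5 ± 4.26 CPM per kilobase in the 3 kinds of myotubes. These shares and sums hold for the union of exons only and depend on the length used. Over the longest transcript Mef2a was at 101, 55.7 and 49.8 CPM per kilobase in control, overexpressor and knockout myotubes. Mef2d was then at 51.6, 86.5 and 105, so Mef2a and not Mef2d led in control myotubes.

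Ratios within a library do not depend on the scaling between libraries. Myog to Myod1, per kilobase, ranged over 0.518 to 0.727, 0.952 to 1.22 and 4.16 to 4.91 in the myoblasts of control, overexpressor and knockout, and 9.44 to 10.6, 8.35 to 8.94 and 7.98 to 8.32 in the myotubes. Mef2c to Mef2a was 0.128 to 0.132 in control myotubes, and 0.329 to 0.393 and 0.366 to 0.407 in overexpressor and knockout myotubes, with no overlap with control. Mef2c to Mef2d did overlap between the lines in myotubes, at 0.0913 to 0.119, 0.0690 to 0.162 and 0.0613 to 0.106 in control, overexpressor and knockout. Mef2a itself was lower in the myotubes of both edited lines, as given above. An exact permutation test of 3 against 3 libraries cannot go under 0.1, so these ratios are given without a p.

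**Figure D4:**
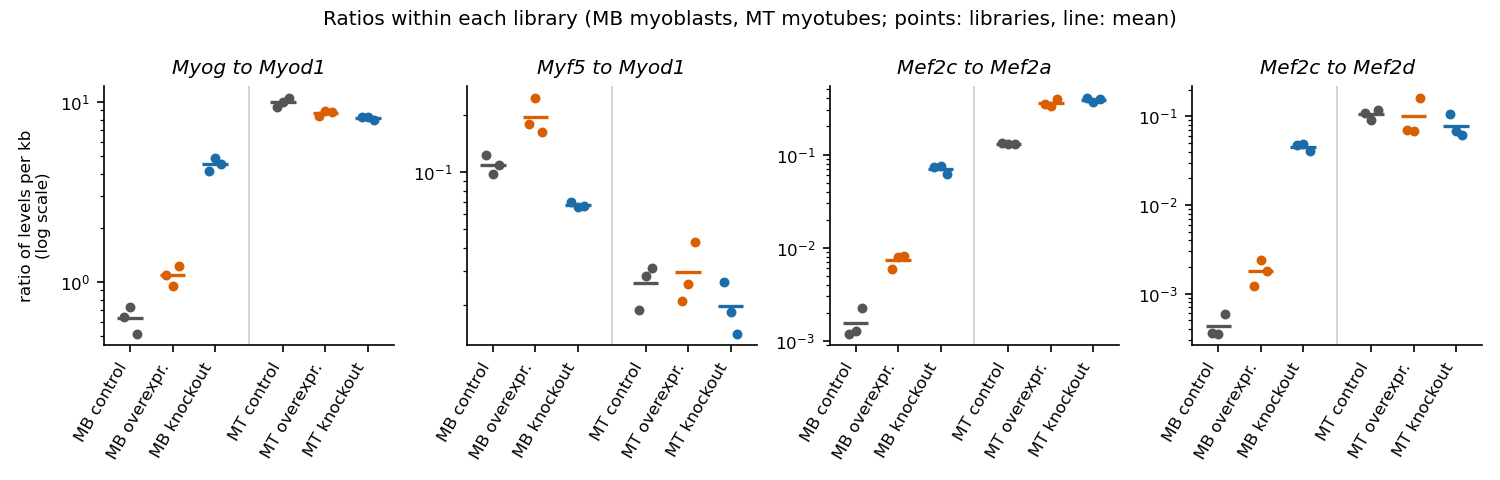
Ratios of levels per kilobase on a log scale, 1 panel per pair of genes and 1 point per library with a line at the mean of 3; MB stands for myoblasts and MT for myotubes. The Mef2c to Mef2a ratio is 0.130 in control myotubes and 0.356 and 0.389 in the overexpressor and knockout, and the Myog to Myod1 ratio climbs in 3 steps through the myoblasts.

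Most listed genes that myogenic factors and MEF2 proteins are known to switch on were higher in both edited lines. The list was chosen with earlier results of these data known, so its counts are no independent check. It shares Acta1, Ckm, Myh3 and Mymk with the myotube markers, and Des and Cdh15 with the myoblast markers. Of 16 listed targets, 16 were higher in knockout myoblasts (median 4.05) and 15 in overexpressor myoblasts (median 0.86), and none was lower. Over all genes 26.4% and 20.7% were higher in these comparisons, and the medians were 0.02. The highest were Myh3, embryonic myosin, at 6.08 in the knockout, and Srpk3, a MEF2-dependent kinase, at 2.22 in the overexpressor (adjusted p = 9.81e-12 and 6.63e-08). Cdkn1a, the inhibitor of the cell cycle, was 2.72 and 0.76 above control, Ckm, muscle creatine kinase, 5.55 and 0.74, and Mymk, the fusogen myomaker, 3.85 and 0.47. In myotubes 16 targets were higher in the knockout (median 1.07) and 14 in the overexpressor (median 0.80), again with none lower. Of all genes 31.0% and 26.2% were higher there. Ckm had the highest value among the targets in both (3.29 and 2.73). Leaving out libraries or changing the fit brought the overexpressor counts to as few as 11 in myoblasts and 12 in myotubes.

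E proteins, the partners of the myogenic factors, were lower in overexpressor myotubes for 3 of 3 genes: Tcf4 by -1.01, Tcf12 by -0.47 and Tcf3 by -0.19 (adjusted p = 0.000501, 0.00346 and 0.0455). The Tcf3 call was close to the threshold and its value small. Library totals in place of TMM moved the median of all genes in that comparison from -0.04 to 0.11. In knockout myotubes Tcf4 (-1.22) and Tcf12 (-0.71) were lower and Tcf3 (0.33) higher. Of all genes 57.1% were called in overexpressor myotubes, 30.9% lower, and 68.0% in knockout myotubes, 37.0% lower. In myoblasts 1 of 3 was called in each line, Tcf4 (-0.998) in the overexpressor and Tcf3 (-0.19, adjusted p = 0.0498) in the knockout, beside 40.4% and 53.0% of all genes called.

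Inhibitors of the myogenic factors, such as the Id proteins that hold E proteins away from DNA, were tested for 15 of 16 listed genes, since Twist1 had 0 counts in all 18 libraries. In overexpressor myoblasts 6 were higher and 4 lower (median 0.02), and in knockout myoblasts 2 were higher and 2 lower (median -0.01). Of all genes 40.4% and 53.0% were called in these comparisons. Msc, which codes for the repressor musculin, was at 4.15, 3.23 and 4.55 CPM in overexpressor myoblasts and at 0.131 to 0.267 CPM in control, a difference of 4.34 (adjusted p = 3.67e-09). Id1 was also higher there (0.96), and Id3 did not pass (0.05). Hey1, a Notch effector, was highest in knockout myoblasts at 2.24 (adjusted p = 2.88e-12), beside 1.80 in the overexpressor.

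In myotubes 4 inhibitors were higher and 11 lower than control in the overexpressor (median -0.73), and 3 were higher and 9 lower in the knockout (median -0.68). Of all genes 57.1% and 68.0% were called there, 30.9% and 37.0% lower. Hey1 had the highest value in both lines (2.24 and 3.11). Mdfi, the cytoplasmic inhibitor I-mfa, fell from 4.57 ± 0.587 CPM in control myotubes to 0.239 ± 0.103 CPM in overexpressor myotubes (-4.27, adjusted p = 9.42e-09), and had 1 to 7 counts in each knockout myotube library. Id3 was at 11.7 CPM in control, 5.54 CPM in overexpressor and 45.6 CPM in knockout myotubes, below control in the overexpressor (-1.07, adjusted p = 9.75e-06) and above it in the knockout (1.97, adjusted p = 3.52e-09). Id1 moved the same way in sign, -0.42 and 0.35.

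Hdac9, a class IIa deacetylase that binds and represses MEF2, had 0.436 ± 0.122 CPM in the myoblasts of the control line, 8.30 ± 1.31 CPM in those of the overexpressor and 2.798 ± 0.242 CPM in those of the knockout. It was 4.24 and 2.67 above control (adjusted p = 5.38e-10 and 2.35e-07), and 1.88 and 0.62 above it in myotubes. Hdac4 was below control by -0.81 in overexpressor myoblasts and by -1.78 and -0.98 in overexpressor and knockout myotubes, with Hdac7 below control in the myoblasts (-1.12 and -0.97) and myotubes (-0.64 and -0.55) of the same lines. Hdac5 was higher in both kinds of edited myotubes (0.44 and 0.95). Of the 7 coactivators and kinases, Smarcd3, the chromatin-remodelling subunit that MyoD recruits, was highest in each comparison, at 0.37 and 0.50 in the overexpressor and 1.19 and 1.83 in the knockout. Ep300 had the lowest value in knockout myoblasts and in the myotubes of both lines (-0.73, -0.55 and -0.87), and Carm1 and Ep300 were both at -0.56 in overexpressor myoblasts.

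Pax7, the satellite-cell factor upstream of Myf5 and Myod1, stepped down over the myoblasts, with 42.1 ± 1.82 CPM for control, 31.1 ± 0.919 CPM for the overexpressor and 18.2 ± 0.428 CPM for the knockout line. In myotubes the order was different, with 5.64 ± 0.054, 4.17 ± 0.566 and 12.6 ± 1.53 CPM, so that the knockout was above control by 1.16 (adjusted p = 6.82e-09). Pax3 and Six4 were called in 1 comparison each against control, Pax3 in knockout myoblasts (1.71, adjusted p = 0.0250) and Six4 in knockout myotubes (-0.29, adjusted p = 0.0459). Pax3 was near the floor, with 0 to 19 counts over the 18 libraries and 0 counts in 3 of them.

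**Figure D5:**
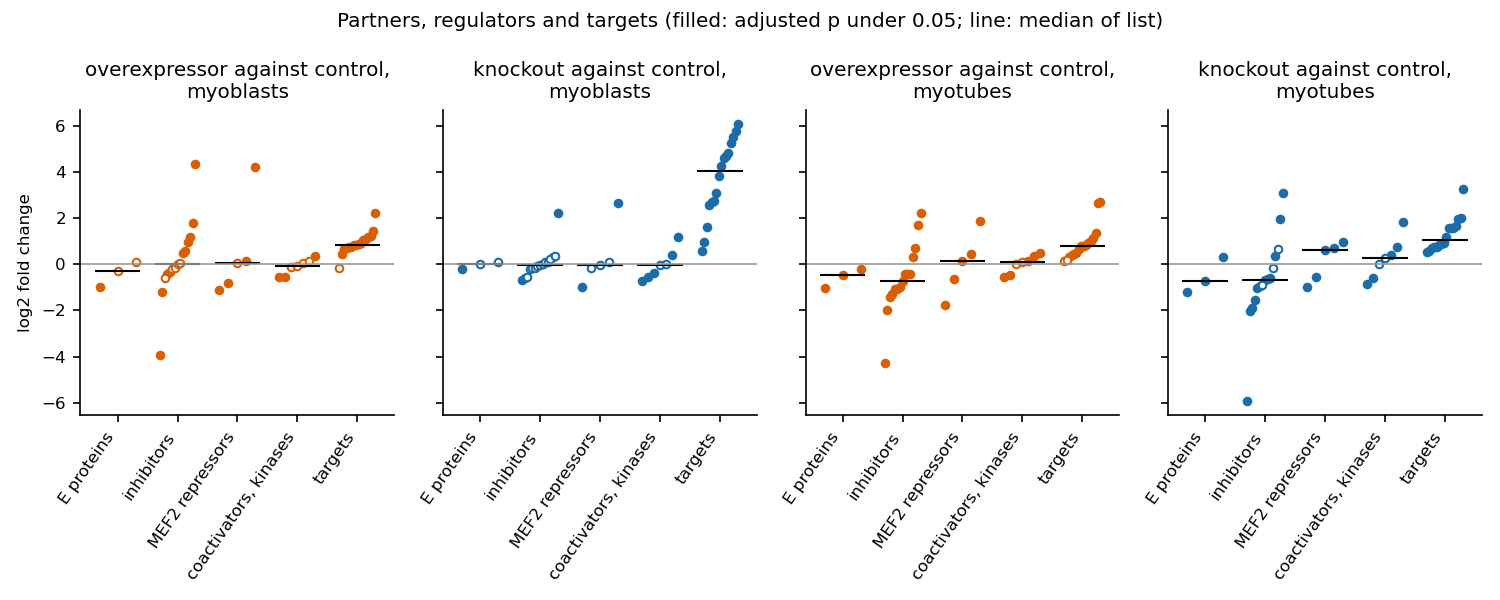
Log2 fold changes of the listed E proteins, inhibitors, MEF2 repressors, coactivators and kinases, and targets in 4 comparisons with control; filled points passed an adjusted p of 0.05 and lines mark the median of each list. The targets have a median of 4.05 in knockout myoblasts, against 0.86 in overexpressor myoblasts, and the inhibitors have medians below 0 in both kinds of myotubes.

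Over the 18 libraries, which share line and stage, the log2 CPM of Myog had its highest Pearson's r among the members with Mef2c (r = 0.98, Spearman's rho = 0.89) and its highest Spearman's rho with Mef2d (r = 0.87, rho = 0.98). Mef2c and Mef2a had r = 0.88, and Myod1 and Mef2a r = -0.08. Myf5 ran against each other member except Myod1, with r from -0.77 for Mef2c to -0.46 for Myf6. Among 10746 other genes, Synpo2l was among those most like Myog (r = 0.997), and those most like Mef2c were Spry1, Lmod2 and Smpx. Creb5, Ywhah and Cep89 were most like Myf5 (r from 0.97 to 0.99), Edc4, Ppp5c and Tcn2 most like Myod1, Blzf1, Ginm1 and Zfp84 most like Mef2a, and P2ry2, Myo18a and Bod1 most like Mef2d. Fam213a (r = 0.97) and Rbbp5 (r = 0.95) were among those most like Myf6. The genes named depend on the measure. By Spearman's rho those most like Myf5 were Spc25, Bard1 and Cenpi, and those most like Mef2a were Utp11, Mtm1 and Bbs4. All also changed for Myog, Mef2c and Mef2d, while Tcn2 stayed for Myod1, and Fam213a and Rbbp5 stayed for Myf6. These are descriptions of 18 libraries in 6 groups and carry no test.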

How the data were processed

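The 18 libraries of polyA RNA were mapped to 6 groups of 3 by the labels, and the letters A to C are the labels' own. The authors deposited raw counts per gene ID, and per the submitters' processing notes the tools were STAR 2.7.9a, featureCounts of Subread 2.0.3, FastQC 0.11.7 and DESeq2 1.32.0, with build mm10. Which annotation release was used and whether counting used strand are not given in the sources used here. Deposited log2-scale variance-stabilised values from the authors were used in 1 alternative only. Symbols and exon lengths came from GENCODE (55190 IDs matched; the other 260 held 0.00589% of counts).

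Counts were tested with edgeR 4.0.16 (R 4.3.3) by the quasi-likelihood test on genes that passed filterByExpr, with TMM factors, 1 coefficient per group and 12 residual degrees of freedom, Benjamini-Hochberg adjustment over 17912 genes and a threshold of 0.05. CPM used the TMM-scaled totals, and 3 counts correspond to 0.0375 to 0.0693 CPM. On simulated counts for knockout against control myoblasts (17285 genes), 90% of 2-fold and 100% of 4-fold changes were recovered, and for the difference in differentiation response of the knockout minus control 77% and 95%. Only 200 genes were changed there, all in knockout myoblasts, and no library was made to stand apart. In the data 53.0% of genes were called in knockout against control myoblasts, so these rates may not hold for it. Alternatives used DESeq2 1.42.0 size factors and its Wald test, library totals, other filters, a replicate block, only the groups compared, limma 3.58.1 and leaving out each library.

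The members and gene lists were chosen with earlier results of these data known. All members were named, and from the lists the highest and lowest values past the threshold, lists of 5 or fewer in full, and a fixed set of genes. Replicate letters were not treated as pairs. Some genes that this rule names are not reported here.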

Additional observations from a re-analysis of the deposited data

Results flagged for a closer look

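The difference in the differentiation response between 2 lines passed the threshold of edgeR's quasi-likelihood test, as a contrast in the model of all libraries, for 17 member values. For the overexpressor minus control these were Myf6 (-4.03), Myog (-1.40), Myf5 (-1.04), Mef2a (-1.03), Myod1 (-0.39) and Mef2d (0.35). For the knockout minus control they were Mef2c (-6.78), Myog (-2.91), Mef2a (-2.86), Myf6 (-1.61) and Mef2d (0.39). For the overexpressor minus the knockout they were Mef2c (4.99), Mef2a (1.83), Myog (1.51), Myod1 (-0.62), Myf5 (-1.56) and Myf6 (-2.42). The first and the second set share control libraries. Each difference of the third set is that of the first minus that of the second, so the 17 values are not separate findings. The Myod1 call of the first set was lost under 11 of 20 alternatives.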

How the results depend on the processing

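Of 84 member values, 65 kept their direction and their side of the threshold under every alternative. Of 1302 alternative values, 33 lost a call, 29 gained one and 15 changed sign. The 15 belong to 5 values that had not passed the threshold. Myod1 in control differentiation became -0.19 with library totals and -0.016 with only the groups compared, and leaving out libraries gave -0.0053 to 0.12. The response of Mef2d in the overexpressor minus the knockout became 0.086 with library totals and 0.020 with no filter, and -0.073 to 0.051 on leaving out libraries. For overexpressor against knockout myotubes, Mef2c became -0.023 with limma, and leaving out libraries gave -0.35 to 0.28 for Mef2c, -0.16 to 0.25 for Myf5 and -0.14 to 0.34 for Mef2a. The order of levels per length was kept in 2 of 6 groups with the longest transcript in place of all exons. The cause of these changes was not tested.

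Library totals shifted the median log2 change over all genes to -0.17 (from 0.07) for control differentiation, -0.24 (from -0.08) for knockout differentiation, 0.11 (from -0.04) for overexpressor against control myotubes, and 0.14 (from -0.05) and 0.17 (from 0.06) for the response of the overexpressor minus control and minus the knockout. DESeq2 size factors shifted it to 0.07 (from -0.04) and 0.06 (from -0.07) for overexpressor and knockout against control myotubes, 0.04 (from -0.08) for knockout differentiation, and 0.06 (from -0.05) and 0.04 (from -0.12) for the response of the overexpressor and of the knockout minus control. With the replicate block, the calls of Myf5 (0.47, adjusted p = 0.0630) and Mef2c (0.60, adjusted p = 0.0597) in overexpressor myotubes were lost, and the response of Mef2c in the overexpressor passed (-1.82, adjusted p = 0.0492). It changed no other member's call. The values showed no general pairing by letter: of 18 libraries, 0 correlated best with their own letter, and in 0 of 15 pairs of groups were all same-letter correlations above 0.1. Whether libraries of the same letter were handled together cannot be told from these values. The 7 to 11 counts of Myf6 and Mef2c in each control myoblast library limit the precision of their fold changes.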
